A study of Mus musculus with 6 samples.

Results

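The genes described here are 10 markers of the Lgr5-expressing stem cells at the base of the intestinal crypt: Lgr5, Ascl2, Olfm4, Smoc2, Tnfrsf19, Rgmb, Cdca7, Slc14a1, Aqp4 and Gkn3. They were chosen by name, with earlier results of these data known. All 10 were measured among the 19938 genes of the table, each by 1 probe set annotated to that gene alone. Crypts were taken from 3 YAP Tg mice and 3 Control mice, and the RNA of each mouse was measured on its own Affymetrix array. By the series title, YAP Tg mice express YAP-S127A through Villin-rtTA, that is, a form of the coactivator YAP that escapes an inhibitory phosphorylation by the Hippo kinases, switched on by doxycycline in the villin-expressing epithelium. Doxycycline was given for 2 days. The labels call the other group Control without naming its alleles or saying whether it received doxycycline, so doxycycline and YAP cannot be told apart. Strain, age and sex are not stated in the labels.

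Crypt-base columnar cells are the dividing stem cells of the gut lining and lie between Paneth cells. Wnt ligands and R-spondins from the niche keep them in the stem cell state, R-spondins by binding Lgr5 and its relatives, and Ascl2 acts together with beta-catenin and TCF at many of their genes. As cells leave the crypt base this set of genes is switched off, and in the intestine it is also lowered in damaged epithelium that turns to a regenerative, YAP-driven state.

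Of the 10 markers, 9 were lower in YAP Tg crypts and 0 were higher, by limma's test with Benjamini-Hochberg adjustment over all 19938 genes at a threshold of 0.05, and 9 and 0 at an unadjusted p below 0.05. Among all genes tested 6.70% were called lower and 7.50% higher. In the same 9 markers all 3 YAP Tg values lay below all 3 Control values, which was so for 17.0% of all genes. The median log2 change (YAP Tg minus Control) was -1.71 over the 10 markers and 0.03 over all genes. The exception was Tnfrsf19, the Wnt target also called Troy, whose values overlapped between the groups. Since whole crypts were measured, fewer stem cells and less RNA per stem cell cannot be told apart. The count depended on the arrays: it was 8, 9 or 7 without YAP Tg 1, 2 or 3, when 4.46%, 19.5% or 4.07% of all genes were called lower, and 6, 6 or 5 without Control 1, 2 or 3, when 1.85%, 2.11% or 2.32% were.

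**Figure D1:**
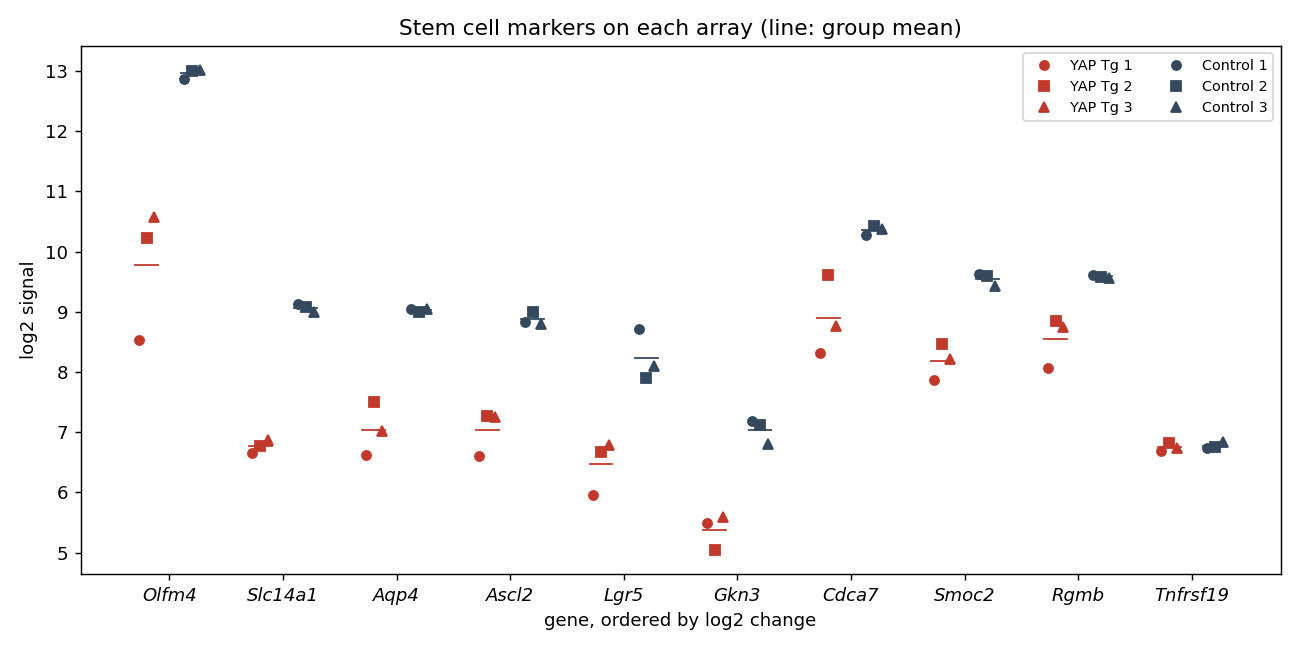
Log2 signal (vertical axis) of the 10 markers on each array, genes ordered from the most negative log2 change on the left; red symbols are YAP Tg mice, dark symbols Control mice, the shape gives the mouse number and lines are group means (n = 3 each). The groups are separated for every gene but Tnfrsf19, and Olfm4 and Cdca7 are spread most widely among YAP Tg mice.

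Promoter sequence from RefSeq (GRCm38.p6) was at hand for 6 of the 10 markers, and the 250 bases before the annotated start are shown for 3 of them. Olfm4 is shown as the marker with the most negative change and Ascl2 as the transcription factor among the markers, and Tnfrsf19, chosen after its values were seen, as the marker that was not called. For Tnfrsf19 the window is that of a start inside the gene, shown because it held matches. The motifs searched on both strands were CTTTGAT (a core bound by TCF/LEF factors), GGAATG (a core bound by TEAD factors, the partners of YAP) and the E-box CAGCTG, and matches are in capitals. All read 5′ to 3′ on the strand of the gene.
Olfm4, chr14:80000052-80000301, plus strand: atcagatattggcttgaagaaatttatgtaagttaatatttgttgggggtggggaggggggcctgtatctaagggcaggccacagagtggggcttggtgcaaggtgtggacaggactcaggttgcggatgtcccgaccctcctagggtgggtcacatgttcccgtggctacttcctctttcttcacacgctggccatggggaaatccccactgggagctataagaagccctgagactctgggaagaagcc
Ascl2, chr7:142969265-142969514, minus strand: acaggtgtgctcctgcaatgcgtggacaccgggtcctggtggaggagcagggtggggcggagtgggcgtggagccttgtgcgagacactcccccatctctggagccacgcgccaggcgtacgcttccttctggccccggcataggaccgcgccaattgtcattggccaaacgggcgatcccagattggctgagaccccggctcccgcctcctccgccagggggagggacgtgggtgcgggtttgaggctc
Tnfrsf19, chr14:61037988-61038237, minus strand: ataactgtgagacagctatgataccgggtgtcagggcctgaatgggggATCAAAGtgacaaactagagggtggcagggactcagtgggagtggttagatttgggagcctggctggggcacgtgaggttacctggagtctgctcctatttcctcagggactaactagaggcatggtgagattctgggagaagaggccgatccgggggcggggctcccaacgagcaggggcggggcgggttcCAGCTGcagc
The Olfm4 and Ascl2 windows held 0 matches to the 3 motifs, and so did those of Cdca7, Gkn3 and Rgmb, which has 3 annotated starts. Of the 2 annotated Tnfrsf19 starts, the window shown held a TCF/LEF core (read on the opposite strand) beginning 202 bases before the start and an E-box beginning 10 bases before it, and the other, at the outermost start of the gene, held 0. No match overlapped another. Among 32851 promoter windows of the same length, 3.21% held the TCF/LEF core, 12.6% the TEAD core and 13.0% this E-box. These matches describe letters in a short window and are not known binding sites.

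Lgr5, the R-spondin receptor that defines these cells (chromosome 10), had log2 signals of 5.96, 6.67 and 6.79 in YAP Tg mice 1, 2 and 3, against 8.71, 7.90 and 8.10 in Control mice 1, 2 and 3. The groups did not overlap, but here the Control mice were spread almost as widely as the YAP Tg mice, with Control 1 above the other two. The log2 change was -1.76 (SE 0.29, limma's adjusted p = 0.0130), a signal 3.39-fold lower. Without Control 3 the adjusted p was 0.0591, and the change was then -1.83.

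Tnfrsf19, a TNF receptor family member on the surface of crypt-base cells (chromosome 14), had log2 signals of 6.69, 6.82 and 6.74 in YAP Tg mice 1, 2 and 3, against 6.74, 6.75 and 6.85 in Control mice. The 6 values were mixed, with the highest and the lowest 0.157 apart. The difference was -0.03 (95% interval -0.20 to 0.15, limma's adjusted p = 0.812), so a fall of the size seen in the other markers lies outside the interval for this probe set. In Control mice too, its signals were near the array medians over genes, 6.74 to 6.79. Whether this probe set can register a fall was not tested. The labels do not say which transcripts the probe set covers.

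Rgmb, a coreceptor for bone morphogenetic proteins (chromosome 17), had the smallest change among the 9 that fell. Its log2 signals were 8.07, 8.85 and 8.75 in YAP Tg mice 1, 2 and 3, against 9.62, 9.58 and 9.56 in Control mice. The Control mice were within 0.06 of each other, and the YAP Tg mice were spread over 0.78, with mouse 1 lowest. The log2 change was -1.03 (SE 0.20, limma's adjusted p = 0.0231), and the call was lost without YAP Tg 3 (adjusted p = 0.0562) or any 1 Control mouse (0.0956 to 0.102).

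Ascl2, the transcription factor that maintains the stem cell programme (chromosome 7), had log2 signals of 6.60, 7.27 and 7.26 in YAP Tg mice 1, 2 and 3, against 8.83, 9.00 and 8.80 in Control mice. YAP Tg mice 2 and 3 were nearly alike and mouse 1 was lower, and all 3 lay at least 1.52 below the lowest Control mouse. The groups differed by -1.83 on the log2 scale (SE 0.19, limma's adjusted p = 0.00299), or 3.56-fold lower, and Ascl2 was called in all 15 alternatives.

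Cdca7, a nuclear protein of dividing cells that is needed for DNA methylation (chromosome 2), had log2 signals of 8.31, 9.62 and 8.76 in YAP Tg mice 1, 2 and 3, against 10.28, 10.42 and 10.37 in Control mice. YAP Tg 2 stood apart from the other YAP Tg mice and was only 0.66 below the lowest Control mouse. The log2 change was -1.46 (SE 0.31, limma's adjusted p = 0.0295), the largest adjusted p among the 9. It was not called without YAP Tg 1 (adjusted p = 0.0522), YAP Tg 3 (0.111) or any 1 Control mouse (0.109 to 0.119).

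Olfm4, a secreted glycoprotein and abundant stem cell marker (chromosome 14), had log2 signals of 8.52, 10.23 and 10.57 in YAP Tg mice 1, 2 and 3, against 12.87, 13.00 and 13.02 in Control mice. The Control mice were within 0.145 of each other, while the YAP Tg mice were spread over 2.04, with mouse 1 far below the other two. The log2 change was -3.19 (SE 0.51, limma's adjusted p = 0.0116), a signal at 11.0% of the Control level. Olfm4 thus had the most negative change of the 10, and its call was lost without any 1 Control mouse (adjusted p = 0.0599 to 0.0637), with a change of -3.23 to -3.16.

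Smoc2, a secreted calcium-binding matrix protein (chromosome 17), had log2 signals of 7.87, 8.47 and 8.21 in YAP Tg mice 1, 2 and 3, against 9.63, 9.59 and 9.42 in Control mice. All YAP Tg mice lay below all Control mice by at least 0.96, and the log2 change was -1.37 (SE 0.16, limma's adjusted p = 0.00408). Gkn3, which encodes a secreted gastrokine (chromosome 6), had log2 signals of 5.50, 5.04 and 5.60 in YAP Tg mice 1, 2 and 3, against 7.18, 7.11 and 6.81 in Control mice. It was the only marker that was lowest in YAP Tg 2, and it changed by -1.66 on the log2 scale (SE 0.18, limma's adjusted p = 0.00299). On YAP Tg 2 its signal was 0.11 below that array's median over 6617 probe sets presumed to be array controls, and on YAP Tg 1 and 3 it was 0.17 and 0.57 above theirs, so little room remained for a lower reading.

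The genes of a transporter and a channel both fell. Slc14a1, a urea transporter (chromosome 18), had log2 signals of 6.66, 6.78 and 6.88 in YAP Tg mice 1, 2 and 3, against 9.14, 9.08 and 8.99 in Control mice. Both groups were tight, and 2.12 separated the highest YAP Tg mouse from the lowest Control mouse. The log2 change was -2.30 (SE 0.08, limma's adjusted p = 0.000274), or 4.91-fold lower, and by p-value Slc14a1 ranked 7 among the 19938 genes. Aqp4, a water channel (chromosome 18), had log2 signals of 6.62, 7.50 and 7.01 in YAP Tg mice 1, 2 and 3, against 9.05, 8.99 and 9.05 in Control mice. Its log2 change was -1.99 (SE 0.21, limma's adjusted p = 0.00310), or 3.97-fold lower, with mouse 1 again lowest.

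Ordered by log2 change the markers ran Olfm4, Slc14a1, Aqp4, Ascl2, Lgr5, Gkn3, Cdca7, Smoc2, Rgmb and Tnfrsf19. The 95% intervals of neighbours in this order overlapped except between Rgmb (-1.52 to -0.54) and Tnfrsf19, so the order among the 9 that fell is not firm. Gkn3 also has a YAP Tg signal close to the presumed control probe sets, so its fall may be a lower limit and its place is uncertain. Even that of Olfm4, -4.42 to -1.95, covered the interval of Slc14a1, -2.50 to -2.09.

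How far each marker fell was then set against its spread between YAP Tg mice. All 10 markers had a larger SD over the YAP Tg arrays than over the Control arrays, as did 75.1% of all genes. The median SD was 0.40 over YAP Tg and 0.08 over Control arrays for the markers, and 0.16 and 0.08 for all genes. For all genes called lower it was 0.23 and 0.10, and 78.1% of them had the larger SD over YAP Tg arrays. For 21 cell cycle genes it was 0.72 and 0.06, so a wide spread was not particular to the markers. The ratio of the SDs was 14.6 for Rgmb, 13.8 for Olfm4, 12.6 for Aqp4 and 9.04 for Cdca7, which were near constant among Control mice. It was 1.53 for Slc14a1, 1.52 for Gkn3, 1.10 for Tnfrsf19 and 1.07 for Lgr5.

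Among these few markers, a larger loss did not go with a larger spread in a regular way. Across the 10 markers, which share the same 6 arrays and so are not independent, loss and SD over YAP Tg arrays had a Pearson's r of 0.65 and a Spearman's rho of 0.37. These values changed with the markers included: for the 9 markers that fell r was 0.54 and rho 0.13, and without Olfm4 as well r was -0.47 and rho -0.24. Over all 1336 genes called lower, r was 0.64 and rho 0.70. Loss and SD are computed from the same values, and a gene with a large SD passes the test only with a large loss. All these figures are therefore descriptions and support no relation. Slc14a1 and Olfm4, next to each other in size of loss, had the smallest and the largest SD over YAP Tg mice among the 9, 0.11 and 1.09. On the YAP Tg arrays Slc14a1 stood 1.33 to 1.85 above the median of the presumed control probe sets, and Olfm4 3.20 to 5.54. How far a low signal narrows the SD was not tested.

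**Figure D2:**
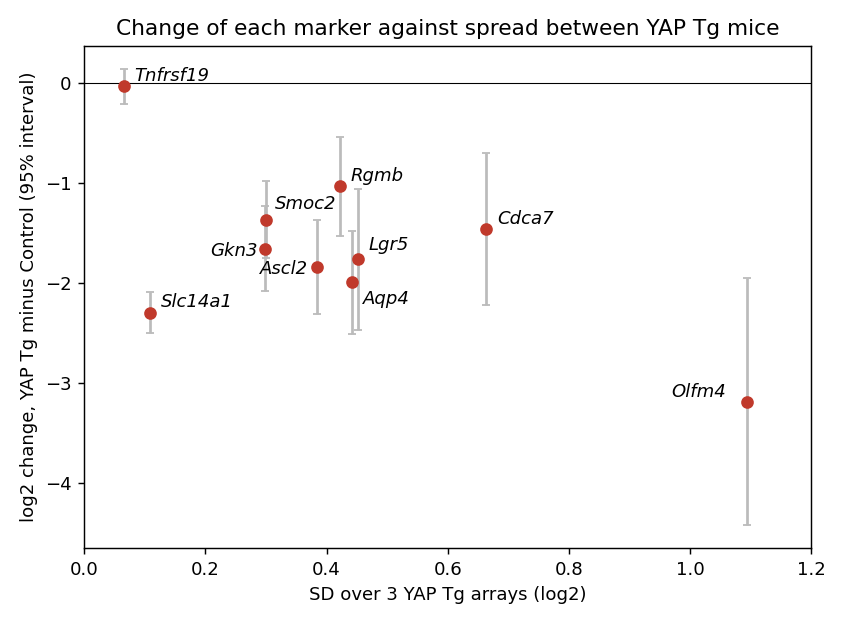
Log2 change of each marker (vertical axis, YAP Tg minus Control, bars are limma's 95% intervals) against the SD of its log2 signal over the 3 YAP Tg arrays (horizontal axis). Slc14a1 combines a change of -2.30 with an SD of 0.11, Olfm4 a change of -3.19 with an SD of 1.09, and Tnfrsf19 stands at -0.03.

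The least affected YAP Tg mouse was compared with the most affected in each of the 9 markers that fell, except Gkn3, whose YAP Tg signals were close to the presumed control probe sets. Relative to the Control mean, the smallest difference of any YAP Tg mouse was 91.0% of the largest on the log2 scale for Slc14a1 and 70.4% for Ascl2. It was 64.4% for Smoc2, 63.5% for Aqp4, 63.3% for Lgr5 and 54.0% for Olfm4. It was 48.8% for Rgmb and 36.2% for Cdca7. For Cdca7 the differences were -2.05, -0.74 and -1.60 in YAP Tg mice 1, 2 and 3, and for Olfm4 they were -4.44, -2.73 and -2.40. Some other markers were also low in signal on YAP Tg 1, their lowest array. Lgr5 stood 0.63 above that array's median over the presumed control probe sets, and Ascl2, Aqp4 and Slc14a1 1.27, 1.29 and 1.33. Their largest differences may be understated and their percentages too high, which was not tested.

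YAP Tg 1 was the lowest YAP Tg mouse in 8 of the 9 markers that fell, and in 66.5% of all genes called lower. YAP Tg 2 was the highest in 5 of the 9 and YAP Tg 3 in 4, against 53.4% and 38.1% of all genes called lower. The median difference of the 10 markers from the Control mean was -2.16, -1.55 and -1.52 in YAP Tg mice 1, 2 and 3. YAP Tg 2 was thus as low in these markers as YAP Tg 3, although on the first principal component of all genes it lay nearest the Control arrays, with YAP Tg mice 1, 2 and 3 at -58.9, -18.8 and -34.8, against 35.3 to 40.4 for the Control mice. On the second component YAP Tg 2 stood apart from all the others, at -36.1, against 11.7 and 12.5 for YAP Tg mice 1 and 3 and 2.08 to 6.36 for the Control mice.

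Dividing cells make up much of the crypt, so cell cycle genes were set beside the markers array by array. Of 21 cell cycle genes measured, 0 passed limma's test in either direction, 7 were lower and 1 higher at an unadjusted p below 0.05, and the median log2 change was -0.74. Their median difference from the Control mean was -1.34, 0.05 and -0.92 in YAP Tg mice 1, 2 and 3, and YAP Tg 2 was the highest YAP Tg mouse in all 21. The proliferation marker Mki67 had log2 signals of 8.72, 10.17 and 9.05 in YAP Tg mice 1, 2 and 3, against 10.38, 10.04 and 10.04 in Control mice (limma's adjusted p = 0.185). On YAP Tg 2 the stem cell markers were therefore low while the median of the cell cycle genes stood near the Control mean. That contrast rests on 1 mouse and was not tested. Without YAP Tg 2, 19 cell cycle genes and 9 stem cell markers were called lower by limma's test, when 19.5% of all genes were called lower. Array weights kept all 6 arrays but gave YAP Tg 2 the lowest weight, 0.25, against 0.50 to 2.41 for the others. With them, 18 cell cycle genes and 9 markers were called lower, when 17.5% of all genes were. That setting is thus not independent of leaving out YAP Tg 2. Among the markers YAP Tg 2 stood furthest above the mean of mice 1 and 3 in Cdca7, by 1.08, followed by Olfm4 (0.69) and Aqp4 (0.68), while in Slc14a1 it differed from that mean by 0.01.

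**Figure D3:**
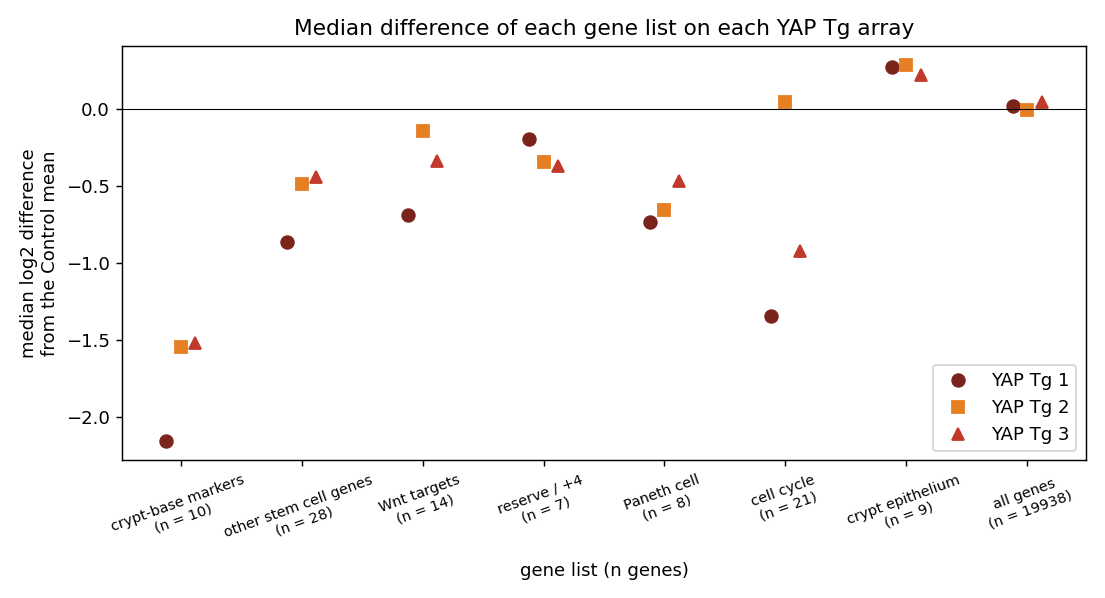
Median log2 difference from the Control mean (vertical axis) of each gene list on each YAP Tg array; the symbol gives the mouse. The stem cell markers lie between -2.16 and -1.52 on all 3 arrays, while the cell cycle genes are at 0.05 on YAP Tg 2 and below -0.9 on the other two.

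Of 28 other genes of the stem cell signature that were measured, 14 were lower, 1 was higher and 13 did not pass the test. Among all genes 6.70% were called lower and 7.50% higher. At an unadjusted p below 0.05 by limma's test, 16 of the 28 were lower and 5 higher. The median log2 change was -0.67. Vdr, the vitamin D receptor, changed by -1.61 on the log2 scale (SE 0.16, limma's adjusted p = 0.00265), and Dach1, a transcriptional cofactor, by -1.44 (SE 0.11, adjusted p = 0.00118). Msi1, an RNA-binding protein, changed by -1.07 and Ephb3, the receptor that positions crypt cells, by -0.73. Rassf5, named after its value was seen, was the gene called higher (0.45), and its Control value was identical, 7.89, on all 3 arrays. Such ties occurred on the Control arrays in 434 of all genes and in 0 of the 10 markers. The 14 became 5, 6 or 6 without Control 1, 2 or 3 and 9 without YAP Tg 3, and 3 genes were higher without YAP Tg 2.

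Wnt targets outside the markers fell in part: 5 of 14 were lower and 0 higher by limma's test, or 6 and 0 at an unadjusted p below 0.05, with a median of -0.36. The list shares 7 measured genes with the signature just described. Axin2, a feedback inhibitor of the pathway, changed by -1.12 (SE 0.21, limma's adjusted p = 0.0208), Rnf43, the ubiquitin ligase that removes Wnt receptors, by -0.67, and the transcription factor Sp5 by -0.44. Sox9, a transcription factor of the crypt base, differed by -0.68 and did not pass (limma's adjusted p = 0.122). Myc had log2 signals of 9.23, 10.42 and 9.54 in YAP Tg mice 1, 2 and 3, against 9.91, 9.93 and 9.59 in Control mice, and YAP Tg 2 was the highest of all 6. The 5 became 1, Ephb3, without any 1 Control mouse or YAP Tg 3, and 3 without YAP Tg 1.

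Genes of Wnt reception and transduction went both ways, with 3 higher and 4 lower of 18 and a median of 0.12. Wls, which escorts Wnt ligands out of the cell, was higher by 0.72 (SE 0.08, limma's adjusted p = 0.00399), the transcription factor Tcf7l2 by 1.00 (SE 0.13) and the receptor Fzd7 by 1.13 (SE 0.23), while the coreceptor Lrp6 changed by -0.65 (SE 0.15). Fzd7 was not called without any 1 Control mouse or YAP Tg 3, nor Lrp6 with any array other than YAP Tg 2 left out. The 4 lower became 0 without any 1 Control mouse and 1 without YAP Tg 1 or 3, and the 3 higher became 6 without YAP Tg 2.

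Of 7 markers of reserve cells above the crypt base, Hopx (-0.86) and Sox4 (-0.97) were lower and Clu, a marker of regenerating epithelium, was higher by 2.75 (SE 0.39, limma's adjusted p = 0.00787); the median was -0.27. Hopx and Sox4 were not called without any 1 Control mouse or YAP Tg 3. Of 8 Paneth cell markers, whose cells adjoin the stem cells, 4 were lower and 0 higher by limma's test, or 7 and 0 at an unadjusted p below 0.05, with a median of -0.63. Pla2g2a, a secreted phospholipase, changed by -1.30 and Habp2 by -1.08. The 4 became 1 without Control 1 or 3 and 2 without Control 2 or YAP Tg 1 or 3.

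**Figure D4:**
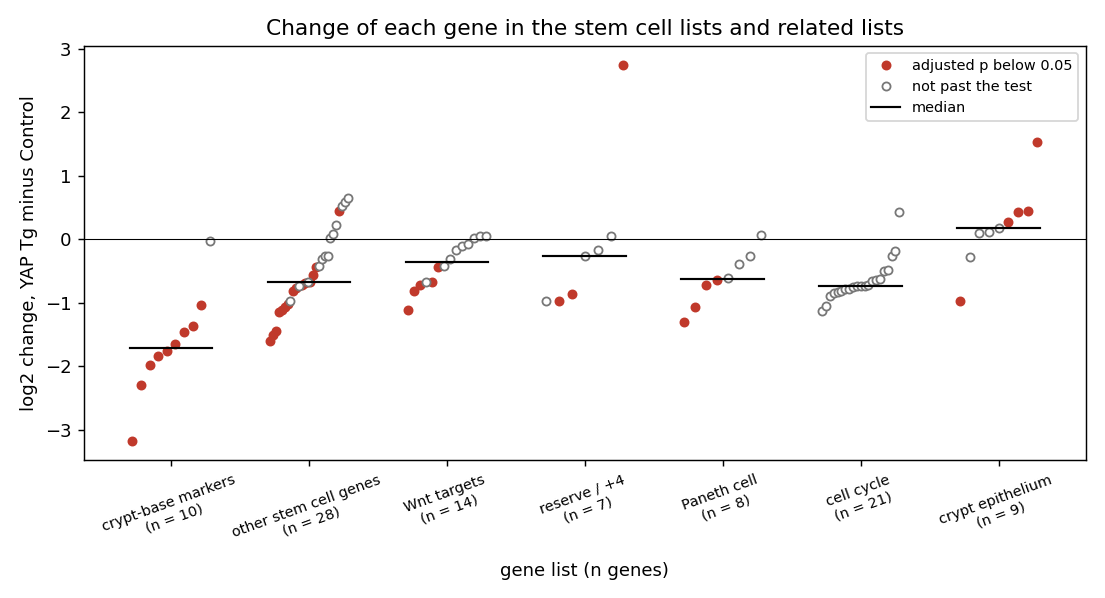
Log2 change (vertical axis, YAP Tg minus Control) of every measured gene in the stem cell lists and related lists; filled points passed limma's test over all genes, open points did not, and lines are medians. The markers have a median of -1.71 and the other stem cell genes of -0.67, while none of the cell cycle genes passed in this fit of all 6 arrays without weights.

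The genes outside the markers whose values over the 6 arrays, centred on their means, were nearest those of Lgr5 were Ros1, a receptor tyrosine kinase (root mean square distance 0.17 on the log2 scale), Hsd11b2, which inactivates glucocorticoids (0.17), Plbd1 (0.17), Thrb, a thyroid hormone receptor (0.18), and Deptor, an inhibitor of mTOR (0.20). Among the markers Ascl2 (0.29) and Aqp4 (0.31) were nearest to Lgr5, and Olfm4 (0.85) and Tnfrsf19 (0.93) farthest.

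The labelled tissue held high levels of the epithelial adhesion molecule Epcam, at 11.85 ± 0.15 in YAP Tg and 11.67 ± 0.06 in Control crypts (SD, n = 3 each). Of 9 general epithelial markers, labelled crypt epithelium in the figures, 4 were higher and 1, the transcription factor Cdx1, was lower. The 4 became 1 without YAP Tg 3 or Control 1 or 3, and 2 without YAP Tg 1 or Control 2. Cdx1 was not called without Control 3. Lymphocyte markers moved opposite to the stem cell markers: 9 of 9 were higher, and their summed linear signal was 24698 to 30542 on YAP Tg arrays and 9602 to 11523 on Control arrays, with 0 of the 9 below the median of the presumed control probe sets. Villus enterocyte markers were mostly lower, though not all. Of 8, 3 were lower (1 without Control 3, 5 without YAP Tg 3) and 0 higher (1 without YAP Tg 2 or with array weights). The 3 lower were Mep1a (-2.46), Fabp1 (-1.74) and Fabp2 (-1.49), and the median of the 8 was -1.11. All YAP Tg values lay below all Control values in 5 of the 8. They lay above them in 2, Alpi (0.27) and Apoa1 (0.22), neither of which passed limma's test on all 6 arrays. The summed signal of the 8 was 42304 to 53638 on YAP Tg and 60344 to 62666 on Control arrays. For the 10 stem cell markers the sum was 1695 to 3493 and 12527 to 13133. The part of these cell types in the loss of stem cell markers was not tested. Yap1 itself stood at 9.17 ± 0.16 in YAP Tg and 9.41 ± 0.09 in Control crypts (SD, n = 3 each; limma's adjusted p = 0.184), and whether its probe set covers the transgene is not known here, while the YAP target Ccn1 rose by 4.49. Array medians over genes were 6.74 to 6.79, and Pearson's r across genes was 0.978 to 0.989 between YAP Tg arrays and 0.996 to 0.997 between Control arrays. Precision is limited by 3 arrays per group.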

How the data were processed

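Total RNA of intestinal crypts, released with EDTA and not cultured per the labels' protocols, was measured on 1 Affymetrix array per mouse. The authors deposited log2 signals for 35556 probe sets, and per the submitters' processing notes the software was Affymetrix Expression Console 1.1. The log2 scale was read from the values (1.99 to 14.4). How background, normalization and probe set summary were handled is not stated in the sources used here, and a change common to all genes would be hidden if most genes were assumed constant. Groups and mouse numbers came from the sample titles. That the mice were separate animals is taken from the titles.

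The 6617 probe sets numbered below the first annotated one were presumed to be array controls and left out. Of the rest, 21789 had 1 gene symbol, 1621 several and 5529 none. Names came from GEO's platform annotation, and 21698 probe sets matched the RefSeq table of GRCm38.p6 by Entrez identifier, which changed 0 symbols. Each of 19938 genes was represented by its probe set of highest mean. The build of the array design is not stated in the sources used here.

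The groups were compared by limma 3.58.1 under R 4.3.3, using lmFit with eBayes and two-sided p-values without covariates, and the Benjamini-Hochberg adjustment covered all genes, with a threshold of 0.05. The procedure was tested on simulated data with equal variance in both groups. In the real data the median ratio of the SDs, YAP Tg over Control, was 1.93 over all genes. The simulation therefore does not show how the test behaves under unequal spread. The markers and all gene lists were chosen with earlier results of these data known. Genes were named by a rule: all markers, up to 4 genes of smallest p per list that passed the test, or 2 where none passed, 7 genes by name, and the 5 genes nearest Lgr5 in pattern. Rassf5, Alpi and Apoa1 were named outside this rule, and not every gene it picked is described. The endothelial list (3 genes) and stromal and muscle list (9 genes) had 0 and 1 genes called by limma, Vim, which was higher, and 1 each at an unadjusted p below 0.05; the YAP/TEAD target list had 5 of 7 and the fetal-like list 4 of 8 called higher. The alternatives were leaving out each array, a block for the replicate number, array weights, quantile normalization or median centring, 2 filters on signal, a robust prior with a trend, the mean of a gene's probe sets, and a test of every probe set.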

Additional observations from a re-analysis of the deposited data

How the results depend on the processing

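With each array left out in turn, between 5 and 9 of the 10 stem cell markers were called lower and 0 higher; the 5 came without Control 3. The median log2 change of the markers was -1.84 to -1.55 in those settings and -1.80 to -1.66 in the others. Quantile normalization, median centring, the filter at the median of the presumed control probe sets, the trended and robust prior, array weights, averaged probe sets and the test of every probe set each left 9 called lower. The share of all those tested that were called lower was then 4.59% (every probe set) to 17.5% (array weights). With only genes above the median signal, 8 markers were called lower, when 14.3% of the 9969 genes tested were. Tnfrsf19 and Gkn3 were not tested there. The 2831 genes called over the whole table were 1043 to 6691 with 1 array left out (6691 without YAP Tg 2), 5940 with array weights and 1702 with the replicate block. Ascl2, Smoc2, Slc14a1, Aqp4 and Gkn3 were called in every alternative in which they were tested.

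The labels do not say whether the replicate numbers pair the samples. The deviations of same-numbered mice correlated at -0.13, 0.01 and 0.10 across genes, and those of differently numbered mice at -0.135 to 0.120. With 3 arrays per group this check cannot settle whether mice were paired. With the replicate block 7 markers were called lower by limma's test, when 3.65% of all genes were. Lgr5 (adjusted p = 0.0588) and Rgmb (0.0526) were not called there. Counts for the other gene lists under these alternatives were added after seeing the data. How far each signal stood above background is known only from the presumed control probe sets.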
